A study of Mus musculus with 12 samples.

Results

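The mitochondrial protein import genes comprised every protein-coding gene whose symbol starts with Timm or Tomm followed by a digit, together with Pam16, Grpel1, Hspd1, Hspe1 and Hspa9. This rule, which used names and no measured value, gave 29 genes out of the 47643 in the table. The RNA came from pieces of pancreatic tumor labelled with the KPC4662 line, a mouse pancreatic carcinoma line. There were 6 libraries from tumors grown in old mice (Old) and 6 from tumors grown in young mice (Young). Both groups carry the same line and neither received a stated treatment, so host age was the labelled difference. The labels give no age in months, strain, sex or injection site for either group. They also do not say whether the pieces of a group came from separate mice, so the p-values below measure the spread between pieces.

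Most mitochondrial proteins are made in the cytosol and must cross one or both mitochondrial membranes to reach their place of work. The TOM complex forms the entry gate in the outer membrane. Small TIM chaperones carry hydrophobic precursors across the intermembrane space, the TIM22 complex inserts carrier proteins into the inner membrane, and the TIM23 complex passes precursors with a presequence. An ATP-driven motor pulls those into the matrix, where the chaperonin of Hspd1 and Hspe1 folds many of them. Import is one of the steps on which assembly of the respiratory chain and of matrix enzymes depends.

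Library totals were 17.8M to 24.1M counts in Old tumors and 20.1M to 23.1M counts in Young tumors. Levels below are in CPM, counts scaled to a common library total by TMM, and levels are compared between genes only in TPM, the deposited transcript abundances, which are per length. Every log2 fold change is Old over Young, from edgeR's quasi-likelihood test with Benjamini-Hochberg adjustment over all 16013 genes tested, and a gene passed at an adjusted p under 0.05. All 10 epithelial tumor markers were detected, with a summed level of 5162 to 8440 CPM in Old tumors and 5387 to 10160 CPM in Young tumors, and 0 of the 10 passed the test. Of 15 pancreatic acinar markers 2 were abundant enough to test. Fibroblast, macrophage, endothelial and T cell markers were present too, so each value is a mixture over cell types. In such bulk libraries fewer cells of a type and less RNA per cell cannot be told apart.

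Most import genes had a negative log2 fold change in Old tumors. Of the 29 members 27 were abundant enough to test and 25 of these 27 had a log2 fold change below 0, or 19 of 27 on a log2(TPM + 1) scale. Their median was -0.25, and 45.8% of all genes tested were below 0, with a median of 0.03. On the TPM scale the medians were -0.13 for the members and 0.13 for all genes, and the members that crossed 0 there were Hspa9, Timm22, Timm50, Tomm34, Tomm40l and Tomm70a, at 0.02 to 0.07 and none of them called. The 6 members that passed the test were all lower in Old tumors, namely Tomm5, Tomm7, Tomm22, Timm10, Timm13 and Hspe1, and 0 members were higher. Among all genes tested 2.26% passed, 1.47% as lower and 0.793% as higher. At a looser adjusted p under 0.1, 12 members were lower, against 4.53% of all genes. At an unadjusted p under 0.05, 15 of the 27 members were lower and 0 were higher, against 10.4% and 10.7% of all genes. In CPM every Old library lay below every Young library in 8 members, against 1.97% of all genes. In CPM 0 members had every Old library above every Young library, against 0.999% of all genes. In TPM only Tomm5 of the 8 stayed apart, with Old tumors up to 181.0 and Young tumors from 181.7. The share of all genes was counted in CPM only.

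**Figure D1:**
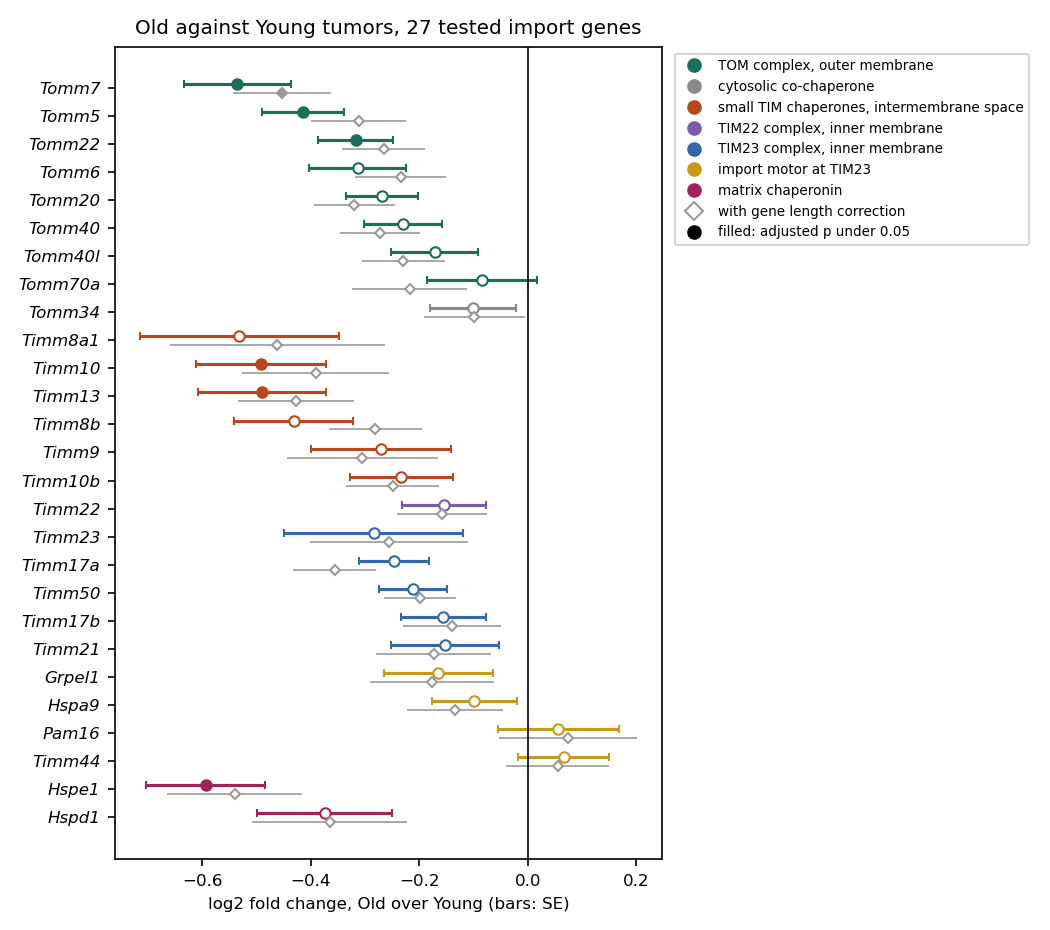
Log2 fold change (Old over Young, horizontal axis) of each of the 27 tested import genes, grouped by role, with bars of 1 standard error on either side; diamonds show the value with a gene length correction and filled symbols passed at an adjusted p under 0.05. Tomm7, Tomm5, Tomm22, Timm10, Timm13 and Hspe1 are filled, Tomm7 alone has a filled diamond, and Pam16 and Timm44 lie right of 0. On a TPM scale 6 further members, none of them called, lie right of 0.

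The 2 members left untested were Tomm20l, with 5 counts over the 12 libraries, and Timm8a2, with 4. Both are relatives of import genes, of the receptor Tomm20 and the small chaperone Timm8a1. They were at or near 0 in every library.

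By TPM averaged over the 12 libraries the chaperones led. Hspd1 averaged 334 TPM, Hspa9 271 and Hspe1 243. The order of the last pair differed between the ages, with Hspa9 at 276 ± 17.9 TPM in Old tumors and 267 ± 29.5 in Young tumors, and Hspe1 at 205 ± 23.2 TPM in Old tumors and 281 ± 46.6 in Young tumors (SD, n = 6 each). The TOM subunits Tomm22, Tomm5 and Tomm6 followed at 198, 183 and 182 TPM. Below them stood Timm8b at 97.9 TPM, Tomm7 at 79, Tomm70a at 76.6 and Tomm40 at 75.5. The lowest tested members were Timm22 and Timm9 at 23.3 TPM each, Timm21 at 21.8, Tomm40l at 18 and Timm8a1 at 10.2. Neighbours in this order often did not differ beyond their spread: Tomm5 had 165 ± 10.1 TPM in Old tumors and 200 ± 18.1 in Young tumors (SD, n = 6 each), and Tomm6 had 170 ± 18.9 in Old and 194 ± 18 in Young.

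The outer membrane gate held 3 of the 6 genes that passed. All 8 tested TOM members were below 0, with a median log2 fold change of -0.29. Their summed level was 694.7 to 728.5 CPM in Old tumors, with a median of 710.7, and 742.4 to 965.6 CPM in Young tumors, with a median of 847.4, so the groups did not overlap. In TPM they did, with sums of 798.9 to 880.6 in Old tumors and 843.3 to 1026 in Young tumors.

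Tomm7 is a small subunit that tunes the stability of the TOM complex and also takes part in Pink1 retention on damaged mitochondria. It lies at chr5:23838944-23844161 on the minus strand of mm10. Its lowest, median and highest levels were 38.1, 41.8 and 51.1 CPM in Old tumors, against 51.7, 61.8 and 76.5 CPM in Young tumors. In CPM the highest Old library stayed just below the lowest Young library, with Young tumor 1 highest of all. In TPM the groups met, with Old tumors up to 78.93 and Young tumors from 78.46. Tomm7 fell by 0.54 on the log2 scale (edgeR adjusted p = 0.0302, SE 0.099).

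Tomm5 is another small subunit, which helps assemble the gate around the Tomm40 channel. It lies at chr4:45105208-45108114 on the minus strand. Old tumors had 51.7, 56.7 and 60.3 CPM of Tomm5 as lowest, median and highest, against 65.4, 72.4 and 84.1 CPM in Young tumors. In CPM a clear gap separated the groups, and Young tumors 1 and 2 were the highest. In TPM the gap was narrow, with Old tumors up to 181.0 and Young tumors from 181.7. The log2 fold change was -0.41 (edgeR adjusted p = 0.0302, SE 0.075), which is 25.0% lower in Old.

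Tomm22 is the central receptor that takes presequence proteins from Tomm20 and joins the channel units. It lies at chr15:79670861-79673400 on the plus strand. Tomm22 ran through 98.9, 104 and 112 CPM in Old tumors, against 111, 134 and 145 CPM in Young tumors. The groups met at 1 library on each side, Old tumor 1 and Young tumor 3. The log2 fold change was -0.32 (edgeR adjusted p = 0.0377, SE 0.069).

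The other TOM genes did not pass. Tomm20, the receptor that first binds presequences, had 166.7, 183 and 194 CPM in Old tumors, against 194, 219 and 243 CPM in Young tumors, with no overlap by a narrow margin. In TPM the groups overlapped, at 54.87 to 66.2 in Old tumors and 63.01 to 75.06 in Young tumors. The log2 fold change of Tomm20, -0.27 (SE 0.066), had an edgeR adjusted p of 0.0511, just outside the threshold. Tomm6, the remaining small subunit, had a log2 fold change of -0.31 (edgeR adjusted p = 0.0753, SE 0.089). Tomm40, the channel itself, had 55.3, 65.2 and 67.6 CPM in Old tumors, against 65.8, 74.7 and 83.0 CPM in Young tumors, and a log2 fold change of -0.23 (edgeR adjusted p = 0.0926, SE 0.072). Its less abundant relative Tomm40l stood at -0.17 (SE 0.080).

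Tomm70a, the receptor for carrier precursors delivered by cytosolic chaperones, differed least in the gate. It had 152, 176 and 183 CPM in Old tumors and 162, 174 and 247 CPM in Young tumors, where Young tumor 2 stood alone at the top. The log2 fold change was -0.08 (edgeR adjusted p = 0.669, SE 0.10), and it was 0.01 without Young tumor 2. Tomm34, a cytosolic co-chaperone that links Hsp70 and Hsp90 partners to import, stood at -0.10 (SE 0.080).

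**Figure D2:**
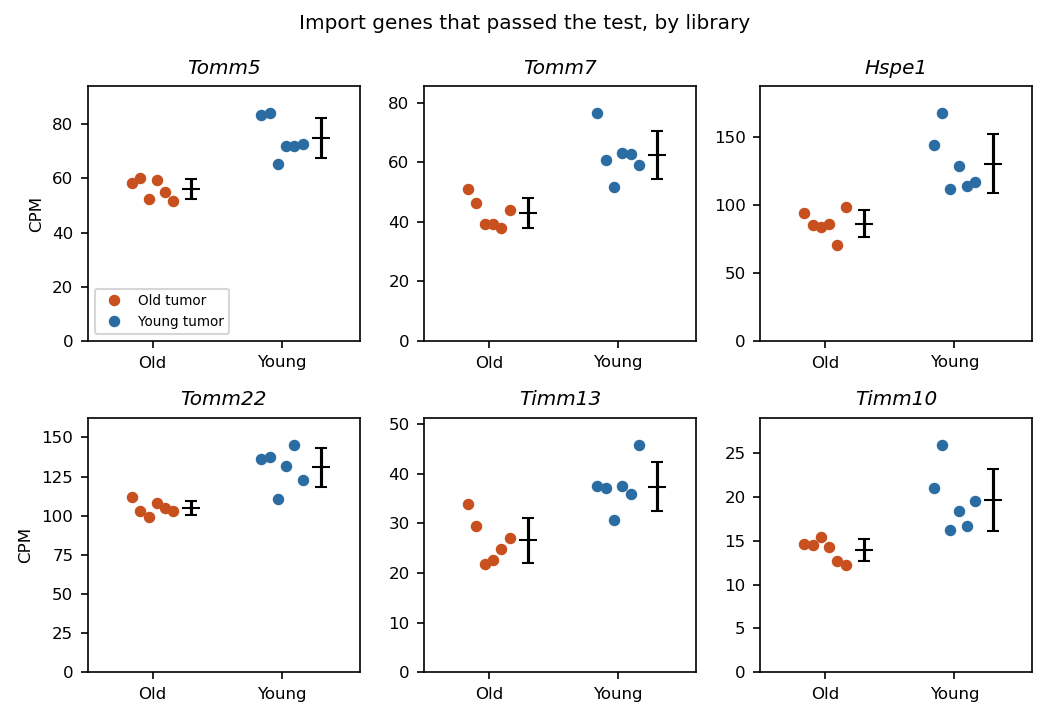
CPM (vertical axis, from 0) in each library for the 6 import genes that passed the test; points are libraries, Old left and Young right, and the bar beside them gives the mean and 1 SD of 6 libraries. In Tomm5, Tomm7, Hspe1 and Timm10 the groups do not overlap, while in Tomm22 and Timm13 Old tumor 1 reaches into the Young range. In TPM, not drawn here, the groups stay apart in Tomm5 alone.

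Small TIM genes had the lowest median of the membrane machinery. The 6 tested members were all below 0, 2 passed, and the median log2 fold change was -0.46. Their summed level was 95.96 to 118.0 CPM in Old tumors and 118.7 to 144.4 CPM in Young tumors, so the groups came close without overlapping. In TPM the sums overlapped, at 239.5 to 292.5 in Old tumors and 284.4 to 333.7 in Young tumors.

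Timm10 forms, with Timm9, the hexamer that carries inner membrane precursors through the intermembrane space. It lies at chr2:84826997-84830213 on the plus strand. Old tumors had 12.2, 14.4 and 15.4 CPM of Timm10, against 16.2, 18.9 and 25.9 CPM in Young tumors. In CPM the groups did not overlap, and Young tumor 2 was the highest. In TPM they overlapped, with Old tumors up to 42.08 and Young tumors from 39.08. The log2 fold change was -0.49 (edgeR adjusted p = 0.0491, SE 0.12).

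Timm13 forms the partner hexamer with Timm8 proteins, which serves precursors such as Timm23. It lies at chr10:80899450-80900969 on the minus strand. Timm13 had 21.8, 26.0 and 33.9 CPM in Old tumors, against 30.7, 37.3 and 45.9 CPM in Young tumors. Old tumor 1 lay above the lowest Young library, and the other Old libraries lay below it. Timm13 fell by 0.49 on the log2 scale (edgeR adjusted p = 0.0484, SE 0.12).

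Their hexamer partners did not pass. Timm8b had 19.2, 24.5 and 27.3 CPM in Old tumors, against 27.4, 32.4 and 38.1 CPM in Young tumors, a separation of under 1 CPM between the groups. In TPM the groups overlapped, with Old tumors up to 97.98 and Young tumors from 91.93. The log2 fold change of Timm8b was -0.43 (edgeR adjusted p = 0.0550, SE 0.11). Timm8a1, the mouse gene for the protein missing in human deafness-dystonia syndrome, had a log2 fold change of -0.53 as large as those that passed, with a wider error (edgeR adjusted p = 0.122, SE 0.18). Timm9 stood at -0.27 (SE 0.13), and Timm10b, which docks the hexamers on the TIM22 complex, at -0.23 (SE 0.095). Timm22, the channel of that complex, had 16.3, 17.3 and 18.8 CPM in Old tumors, against 17.4, 19.7 and 21.2 CPM in Young tumors, and a log2 fold change of -0.15 (edgeR adjusted p = 0.269, SE 0.077).

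In the TIM23 complex all 5 members were below 0 and none passed, with a median log2 fold change of -0.21. Timm17a, a channel subunit that is degraded under stress, had 34.8, 35.9 and 38.9 CPM in Old tumors, against 40.2, 42.3 and 47.0 CPM in Young tumors. Timm50, the receptor that hands presequences to the channel, had 36.7, 37.2 and 40.2 CPM in Old tumors, against 40.8, 43.3 and 49.4 CPM in Young tumors. In both genes the groups did not overlap in CPM, and both stayed outside the threshold, with log2 fold changes of -0.25 (edgeR adjusted p = 0.0587, SE 0.064) for Timm17a and -0.21 (edgeR adjusted p = 0.0807, SE 0.062) for Timm50. In TPM both overlapped. Timm17a had 61.15 to 70.17 TPM in Old tumors and 56.53 to 77.61 in Young tumors. Timm50 had 54.11 to 60.39 TPM in Old tumors and 53.18 to 57.35 in Young tumors. Timm17b, the alternative channel subunit, stood at -0.16 (SE 0.079), and Timm21, which bridges TIM23 to the outer membrane gate, at -0.15 (SE 0.099).

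Timm23, the channel-forming subunit, was the most uneven of this complex in Old tumors. Its levels were 18.9, 27.6 and 41.1 CPM in Old tumors and 28.5, 36.0 and 39.2 CPM in Young tumors, with coefficients of variation of 28.5% in Old and 12.9% in Young. Old tumor 1 had more than every Young library, and Old tumor 5 had the least of all. Its log2 fold change was -0.28 (edgeR adjusted p = 0.342, SE 0.16).

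The import motor had the median nearest 0 of the groups by role. Of its 4 members 2 were below 0, 0 passed at an adjusted or at an unadjusted p under 0.05, and the median log2 fold change was -0.02. Hspa9, the matrix Hsp70 that pulls precursors inward, had 454, 475 and 510 CPM in Old tumors, against 454, 504 and 598 CPM in Young tumors. Its log2 fold change was -0.10 (edgeR adjusted p = 0.495, SE 0.078). Grpel1, which exchanges the nucleotide of Hspa9, had a log2 fold change of -0.17 (edgeR adjusted p = 0.364, SE 0.10).

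The remaining pair were the members with a positive fold change. Timm44, which tethers Hspa9 to the channel, had 56.4, 62.6 and 74.7 CPM in Old tumors, against 53.2, 59.3 and 68.8 CPM in Young tumors, with ranges that overlapped widely. Pam16, which restrains the J-protein that activates Hspa9, had 11, 12.2 and 12.9 CPM in Old tumors, all inside the Young range of 9.69, 11.1 and 14.2 CPM. The log2 fold changes were 0.07 (edgeR adjusted p = 0.686, SE 0.084) for Timm44 and 0.06 (edgeR adjusted p = 0.811, SE 0.11) for Pam16.

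Hspe1 had the most negative log2 fold change of the 27 tested members. It encodes the lid of the matrix chaperonin and lies at chr1:55088132-55091307 on the plus strand. Hspe1 had 70.4, 85.5 and 98.3 CPM in Old tumors, against 111, 122 and 167 CPM in Young tumors. In CPM no libraries overlapped, Old tumor 5 was lowest and Young tumor 2 highest. In TPM Old tumor 6, at 238.81, lay above Young tumor 5, at 230.92. The mean was 86.2 ± 9.56 CPM in Old and 130.1 ± 21.8 CPM in Young (SD, n = 6 each), which is 33.7% lower in Old on the fitted scale. The log2 fold change was -0.59 (edgeR adjusted p = 0.0302, SE 0.11).

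Hspd1 encodes the chaperonin barrel and starts next to Hspe1 on the other strand, at chr1:55077835-55088243. It had 398, 426 and 486 CPM in Old tumors, against 448, 502 and 770 CPM in Young tumors. Young tumors 1 and 2 stood far above the other 10 libraries, at 654 and 770 CPM. The log2 fold change was -0.37 (edgeR adjusted p = 0.108, SE 0.12), so the barrel did not pass where the lid did.

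**Figure D3:**
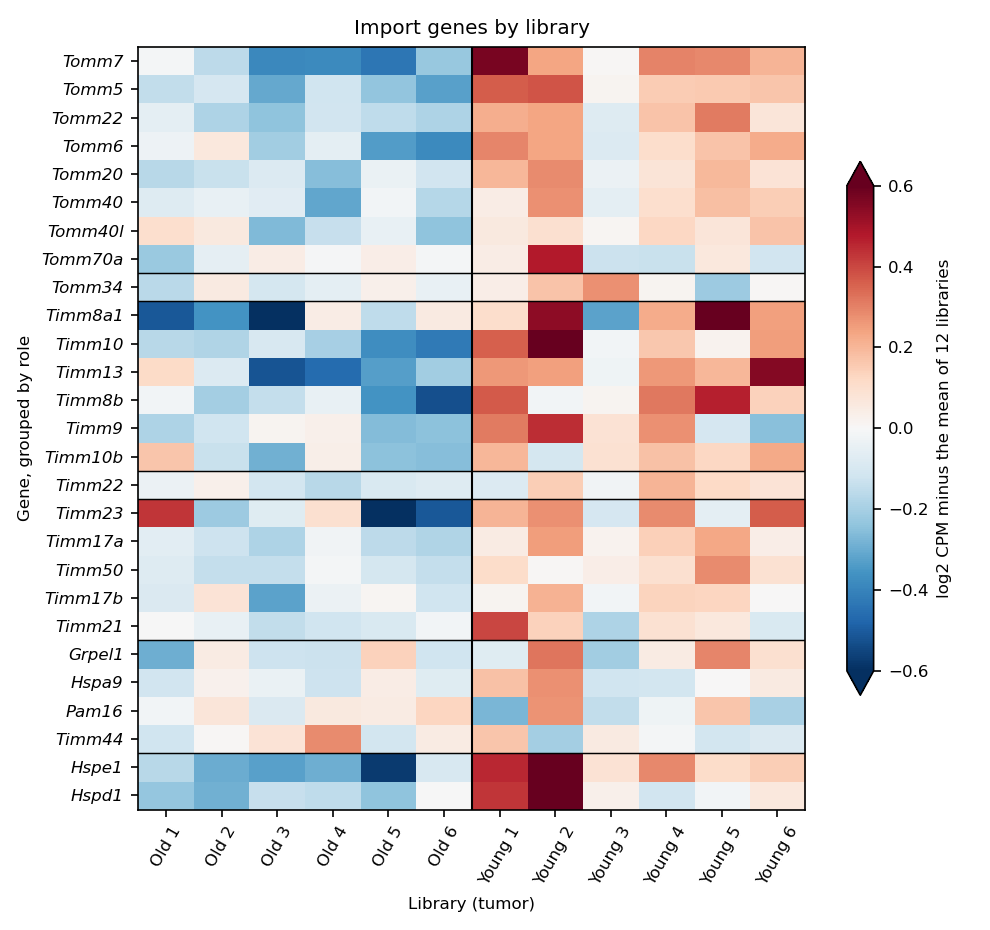
Log2 CPM of each tested import gene (vertical, grouped by role) in each library (horizontal, Old left and Young right), shown as the difference from that gene's mean over 12 libraries. Blue, below the mean, prevails in the Old columns and red in the Young columns for the gate, small TIM and chaperonin genes, with Young tumors 1 and 2 the reddest for Hspd1 and Hspe1 and little contrast in the motor rows.

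The genes that passed were short, and fold change varied with gene length across the whole table. The 6 that passed had exon lengths of 815 to 1651 bp, with a median of 1248 bp, against 3528 bp for the 21 tested members that did not and 4022 bp for all genes tested. In the shortest length decile of all genes, 83 to 1334 bp, the median log2 fold change was -0.18 and 3.88% of genes passed as lower. In the next, 1335 to 2055 bp, the median was -0.10 and 3.63% passed as lower, and in the longest it was 0.16 with 0% lower. The 10 members under 2000 bp were all below 0, with a median of -0.46, and the 17 longer members had a median of -0.17 with 15 below 0.

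A smooth length trend was then removed in the same test, with length taken as the union of a gene's annotated exons. The members' median was -0.26 and that of all genes -0.02. Relative to all genes the members stood at -0.24, against -0.27 without the correction. Of the 27 members 1, Tomm7, passed, at a log2 fold change of -0.45 (edgeR adjusted p = 0.0424). In that fit 0.6% of all genes passed as lower. Hspe1 stood at -0.54 (edgeR adjusted p = 0.0675), Timm13 at -0.43 (0.0846), Tomm5 at -0.31 (0.108), Tomm22 at -0.27 (0.115) and Timm10 at -0.39 (0.174). Among longer members Timm17a, at -0.36 (edgeR adjusted p = 0.0508), and Tomm20, at -0.32 (0.0690), stood further below 0 than without the correction, while Hspd1 at -0.37 and Timm50 at -0.20 stood close to their values without it. On log2(TPM + 1), which is also per length, the first 2 stood nearer 0 instead. Timm17a was at -0.08 and Tomm20 at -0.13 there, with the median of all genes at 0.13. The median of the 17 longer members was -0.20 and that of the 10 short ones -0.35.

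**Figure D4:**
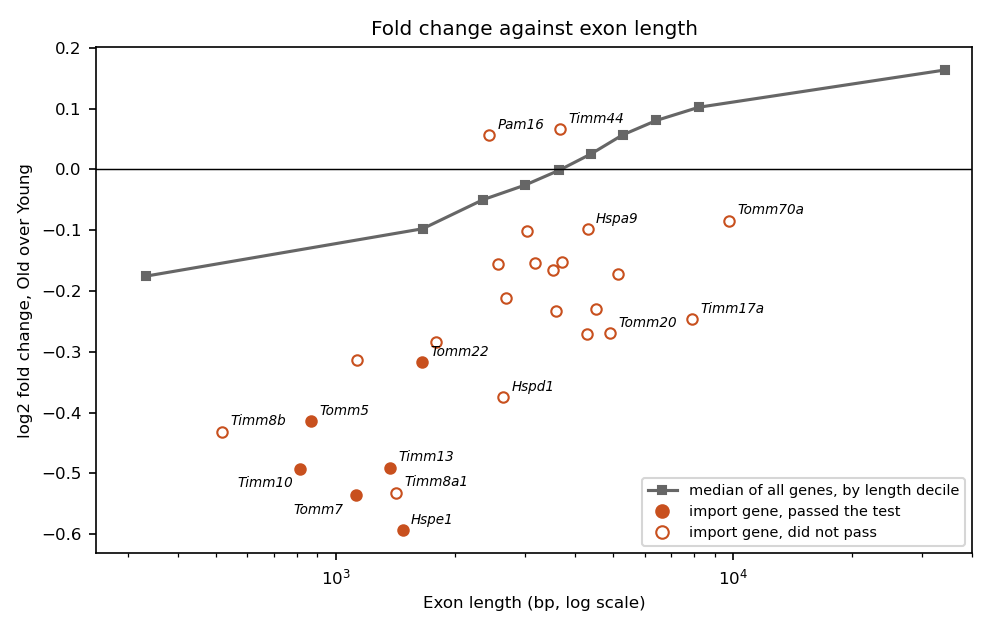
Log2 fold change (Old over Young, vertical axis) against exon length (bp, log scale) of the 27 tested import genes, filled where they passed at an adjusted p under 0.05; grey squares are the medians of all genes in 10 length classes. The filled points lie between 815 and 1651 bp and below the grey line, which itself climbs with length, and 25 of the 27 import genes lie below 0.

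The number that passed depended on single libraries. It was 0 without any one of Young tumors 1 and 4 or Old tumors 2, 3, 4 and 5, and 1 without Old tumor 6, which left Hspe1. It was 2 without Young tumor 5, 3 without Young tumor 2 or Young tumor 6, 7 without Young tumor 3 and 10 without Old tumor 1. Over all genes the count moved in the same fits between 2 and 1106, against 362 with every library. The members' median log2 fold change moved between -0.27 and -0.22, with 24 or 25 of 27 below 0 and 14 to 17 lower at an unadjusted p under 0.05. In these fits 1434 to 2134 of all genes were lower at that p, with 16124 to 16226 genes tested. With Young tumors 1 and 2 both left out, a choice made after seeing the data, 0 members and 0 genes passed and the members' median was -0.22. In that fit 16 of 27 members and 1377 of 16407 genes were lower at an unadjusted p under 0.05.

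Markers of cycling cells, like most import genes, had negative log2 fold changes in Old tumors. All 15 were below 0 and 6 passed as lower, and their summed level was 580.4 to 881.1 CPM in Old tumors and 933.6 to 1216 CPM in Young tumors, with no overlap and no marker at 0 in all libraries. With these markers as a covariate the members' median was -0.26, against 0.046 for all genes, and 24 of 27 members were below 0. In that fit 8 of 27 members and 561 of 16013 genes were lower at an unadjusted p under 0.05. In edgeR 0 members and 1 gene in all passed. The marker sums did not overlap between the ages, so this fit cannot tell the markers from age. Whether these markers and the import genes varied together by library was not tested. Acinar markers summed to 12.6 to 19.2 CPM in Old tumors and 12.7 to 74.5 CPM in Young tumors. With the 2 that could be tested as a covariate the members' median was -0.23 and 0 passed. In that fit 14 of 27 members and 1301 of 16013 genes were lower at an unadjusted p under 0.05. Fibroblast markers summed to 1356 to 9973 CPM in Old tumors and 1601 to 3750 CPM in Young tumors, with all 10 above 0 and 0 passing. T cell markers summed to 8.13 to 32.3 CPM in Old tumors and 17.8 to 42.9 CPM in Young tumors, with 9 of 10 below 0 and 0 passing. Endothelial markers summed to 70.8 to 309.9 CPM in Old tumors and 76 to 120.2 CPM in Young tumors, with all 6 above 0 and 0 passing. B and plasma cell markers summed to 29.1 to 1386 CPM in Old tumors and 20.7 to 208 CPM in Young tumors, with all 4 that were tested above 0 and Ighm passing as higher (edgeR adjusted p = 0.0239). Adipocyte markers summed to 23.6 to 244.5 CPM in Old tumors and 17.5 to 31.1 CPM in Young tumors, with all 3 that were tested above 0 and Plin4 passing as higher (edgeR adjusted p = 0.0353). No marker of these 5 lists was at 0 in all libraries, and their part in the import genes was not tested.

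Ratios between related members within a library, which do not depend on library scaling, were compared for 8 pairs by a two-sided exact permutation test on log2 TPM ratios, whose smallest possible p is 0.00216. In 3 pairs the ratio differed with an adjusted p under 0.05 over the 8. The log2 ratio of Hspd1 to Hspe1 was 0.59 ± 0.14 in Old tumors and 0.35 ± 0.15 in Young tumors (SD, n = 6 each; exact permutation p = 0.0108, adjusted 0.0346), a mean of 1.5 barrel transcripts per lid transcript in Old and 1.27 in Young. With the length trend removed the log2 fold changes of the pair were -0.37 for Hspd1 and -0.54 for Hspe1. The log2 ratio of Hspa9 to Hspd1 was -0.15 ± 0.14 in Old and -0.41 ± 0.16 in Young (exact permutation p = 0.0130, adjusted 0.0346). So Hspa9 was higher relative to Hspd1 in Old tumors. The log2 ratio of Grpel1 to Grpel2, an alternative exchange factor outside the member list, was 0.34 ± 0.10 in Old and 0.64 ± 0.18 in Young (exact permutation p = 0.00649, adjusted 0.0346). Grpel2 itself had a log2 fold change of 0.15 (edgeR adjusted p = 0.384, SE 0.096).

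These 3 calls were also held by few libraries. With 1 library left out the Grpel1 to Grpel2 difference ran from -0.34 to -0.26 and kept an adjusted p under 0.05 without Old tumor 6, Young tumor 3 or Young tumor 4. The Hspd1 to Hspe1 difference ran from 0.18 to 0.28 and kept it without Old tumor 1 or Old tumor 6, and the Hspa9 to Hspd1 difference ran from 0.21 to 0.30 and kept it without Old tumor 6 or Young tumor 4. Without any other single library they were not called, with adjusted p up to 0.0808.

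In the other 5 pairs no difference was called. The difference in log2 ratio, Old minus Young, was -0.04 for Timm17a to Timm17b (exact permutation p = 0.654), -0.08 for Timm8a1 to Timm8b (p = 0.71), -0.13 for Tomm40 to Tomm40l (p = 0.312), 0.02 for Tomm20 to Tomm22 (p = 0.727) and 0.20 for Timm9 to Timm10 (p = 0.0996). The Tomm20 to Tomm22 ratio, between the receptors, was -1.60 ± 0.11 in Old and -1.62 ± 0.06 in Young. Timm8a1 to Timm8b varied most among libraries.

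**Figure D5:**
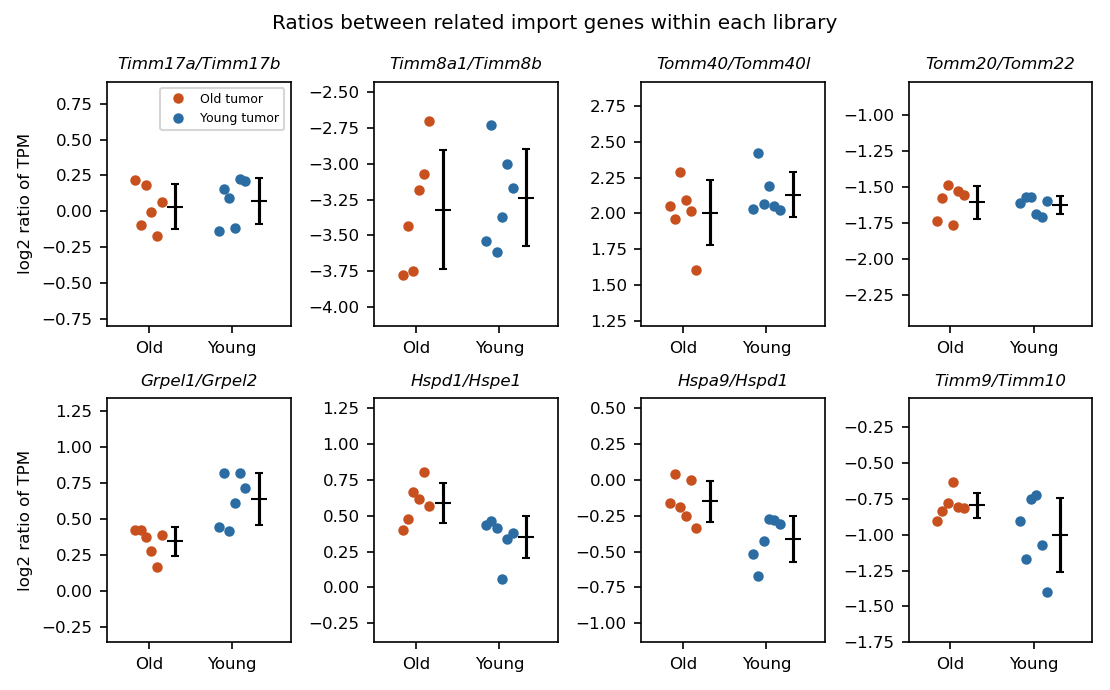
Log2 ratio of TPM between related import genes (vertical axes, all of the same span) in each library, Old left and Young right, with the mean and 1 SD of 6 libraries. Old points sit lower for Grpel1/Grpel2 and higher for Hspd1/Hspe1 and Hspa9/Hspd1, with overlap in each panel.

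Across the 12 libraries of both ages, partners varied together to different degrees. The permutation shuffled libraries of both ages together, so a difference shared between the ages enters r and its p. Within an age no pair had an adjusted p under 0.05 over the 4 pairs. Over the 12 libraries log2 CPM of Hspd1 and Hspe1 had Pearson r = 0.863 (permutation p = 0.00018, adjusted over 4 pairs 0.00072) and Spearman rho = 0.846 (permutation p = 0.00105, adjusted 0.0042). Without Young tumors 1 and 2, the farthest in Hspd1, r was 0.692. Within Old tumors it was 0.525 (exact permutation p = 0.278, n = 6) and within Young tumors 0.883 (exact permutation p = 0.0292, n = 6). For Hspa9 and Grpel1 r was 0.649 (permutation p = 0.022, adjusted 0.0249) and rho 0.776 (permutation p = 0.00455, adjusted 0.00685), with r = 0.739 without Young tumors 1 and 2, 0.903 within Old (exact permutation p = 0.0139) and 0.489 within Young (exact permutation p = 0.319).

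For the hexamer partners Timm9 and Timm10 r was 0.762 (permutation p = 0.00379, adjusted 0.00758) and rho 0.629 (permutation p = 0.0321, adjusted 0.0321), with r = 0.432 without Young tumors 1 and 2, so the relation leaned on those libraries. It was 0.77 within Old (exact permutation p = 0.1) and 0.6 within Young (exact permutation p = 0.206). For Timm8b and Timm13 r was 0.641 (permutation p = 0.0249, adjusted 0.0249) and rho 0.769 (permutation p = 0.00514, adjusted 0.00685), with r = 0.677 without Old tumor 6 and Young tumor 5. Within an age it was 0.0713 in Old (exact permutation p = 0.892) and 0.122 in Young (exact permutation p = 0.876), so this pair's relation did not hold within either age.

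Promoter sequence was read for members that passed the test, 250 bases before the RefSeq start, from the RefSeq table for GRCm38.p6. Of the 29 members 25 had an entry, and 5 of the 6 that passed. The sequences of Hspe1, Tomm22 and Timm10 are shown because they passed the test and hold the ETS core. Those of Timm13 and Tomm5, which passed but lack that core, are not shown. Capitals mark the ETS core (CCGGAAG), the heat shock element (GAA, TTC and GAA in turn with any 2 bases between) and the GC box (GGGCGG), each searched on both strands. The windows are chr1:55087898-55088147 for Hspe1, chr15:79670618-79670867 for Tomm22 and chr2:84826771-84827020 for Timm10, all on the plus strand. Each runs a little way past the gene start given above, which comes from another annotation.
Hspe1: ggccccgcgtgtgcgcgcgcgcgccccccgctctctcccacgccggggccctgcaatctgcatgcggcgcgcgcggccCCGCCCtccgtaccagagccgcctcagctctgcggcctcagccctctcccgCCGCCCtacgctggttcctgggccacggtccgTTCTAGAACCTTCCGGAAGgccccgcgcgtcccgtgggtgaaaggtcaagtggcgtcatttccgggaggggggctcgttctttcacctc
Tomm22: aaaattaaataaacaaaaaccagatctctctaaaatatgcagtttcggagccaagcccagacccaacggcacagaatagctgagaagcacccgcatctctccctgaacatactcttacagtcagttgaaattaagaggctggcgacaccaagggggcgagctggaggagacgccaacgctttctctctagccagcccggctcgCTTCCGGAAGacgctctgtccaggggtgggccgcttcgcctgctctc
Timm10: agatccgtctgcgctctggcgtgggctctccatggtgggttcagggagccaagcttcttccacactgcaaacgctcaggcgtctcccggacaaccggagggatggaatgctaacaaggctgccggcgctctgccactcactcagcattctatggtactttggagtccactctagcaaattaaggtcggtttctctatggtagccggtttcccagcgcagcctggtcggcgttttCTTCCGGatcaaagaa

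Over windows that run from 250 bases before the start to 50 after it, the ETS core stood in 11 of 25 members (44.0%), against 9.9% of the 27025 genes with a window. In Tomm22 it matched on both strands, 47 and 44 bases before the RefSeq start, and in Timm10 it matched 16 bases before it. By the gene coordinates given above for Timm10, that match lies inside the gene. In Hspe1 the ETS matches at 80 and 77 bases overlap heat shock elements at 89 and 84 bases before the start, so the letters are shared. The heat shock element was found in Hspd1, Hspe1 and Timm9, 12% of the members against 0.7% of all genes. An E-box (CACGTG) stood in 6 members (24% against 8.1%), the GC box in 14 (56.0% against 38.2%) and CCAAT in 9 (36.0% against 41.1%). The 27025 genes include genes not tested here and were not matched to the members for expression. A match describes letters in the window and not a bound site. The ETS core was held by 3 of the 5 members that passed and had a window, and not by Timm13 and Tomm5. It was also held by Grpel1, Hspd1, Timm10b, Timm23, Timm8b, Tomm34 and Tomm70a, which did not pass, and by the untested Timm8a2.

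Several members start beside a gene on the other strand. Hspd1 and Hspe1 share a start region in which they share 112 exon bases. The start of Timm8b lies 98 bases from that of Sdhd, a respiratory complex II subunit, with log2 fold changes of -0.43 (SE 0.11) for Timm8b and -0.24 (edgeR adjusted p = 0.142, SE 0.088) for Sdhd. Timm9 and its neighbour 2700049A03Rik, 164 bases apart, stood at -0.27 and 0.30, and Tomm6 and Frs3, 644 bases apart, at -0.31 and 0.51, so neighbours did not always share a direction. Timm23 and Parg, 51 bases apart, stood at -0.28 and 0.02, and Timm17b and Pqbp1, 88 bases apart, at -0.16 and -0.04. None of these 5 neighbours passed, and 15 members share exon bases with another annotated gene, Hspe1 and Timm13 among those that passed.

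Around the members, 13 further genes of the import machinery were tested and 1 passed, lower in Old. It was Romo1, a small inner membrane protein associated with TIM23 in human cells, with 19.2, 20.4 and 25.6 CPM in Old tumors, against 27.5, 30.4 and 37.3 CPM in Young tumors and no overlap. In TPM Old tumor 2, at 133.22, lay above Young tumor 4, at 128.68. Romo1 fell by 0.51 on the log2 scale (edgeR adjusted p = 0.0327, SE 0.10), and by 0.39 with the length trend removed (edgeR adjusted p = 0.0634). Of the 13 genes 9 were below 0, with a median of -0.19. Of 14 genes of inner membrane and matrix quality control 1 passed, the prohibitin Phb, a scaffold of the inner membrane. Phb had 62.1, 64.0 and 65.4 CPM in Old tumors, against 72.1, 74.6 and 84.7 CPM in Young tumors, and a log2 fold change of -0.25 (edgeR adjusted p = 0.0426, SE 0.056), or -0.24 with the length trend removed (edgeR adjusted p = 0.134). In TPM the groups overlapped, at 60.62 to 79.17 in Old tumors and 63.68 to 76.51 in Young tumors. Old tumor 3 was the highest of all there. The median of that list was 0.02, with 7 of 14 below 0.

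No gene passed in the other neighbouring groups. The 7 presequence proteases had a median log2 fold change of -0.02, with Xpnpep3 at 0.25 (edgeR adjusted p = 0.180, SE 0.10) and Immp1l at -0.22 (edgeR adjusted p = 0.243, SE 0.10). The 8 MICOS genes, which shape the cristae junctions, had a median of -0.16, with Minos1 at -0.26 (edgeR adjusted p = 0.0926, SE 0.081) and 2410015M20Rik at -0.16 (edgeR adjusted p = 0.227, SE 0.071). All 10 cytosolic chaperones of precursor proteins were below 0, with a median of -0.16, led by Dnajb6 at -0.24 (edgeR adjusted p = 0.103, SE 0.078) and Hsp90aa1 at -0.34 (edgeR adjusted p = 0.168, SE 0.13). Of 4 transcription factors of the mitochondrial stress response 3 were below 0, with Atf4 at -0.21 (edgeR adjusted p = 0.168, SE 0.082) and Atf5 at -0.18 (edgeR adjusted p = 0.363, SE 0.11).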

How the data were processed

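Poly(A) RNA from tumor pieces, extracted with the PureLink kit, went into NEBNext directional libraries, per the labels' protocols. The submitters' processing notes name cutadapt 2.3, STAR 2.7.0d, RSEM 1.3.1 and the build mm10. Which annotation and strand setting RSEM had is not given in the sources used here. Both tables that the authors deposited cover 47643 genes, one in expected counts and one in TPM. The deposited expected counts were whole, with a tolerance of 0, in 86.0% to 88.2% of entries per library and were rounded; RSEM shares reads among similar or overlapping genes, and 17 members had a fractional count, so their values are uncertain to that extent.

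Libraries were grouped by label, 6 Old and 6 Young. Counts were tested with edgeR 4.0.16 (R 4.3.3; TMM, filterByExpr, quasi-likelihood F test, two-sided). The standard error is the log2 fold change over the square root of F. Ratios used log2(TPM + 0.1) of the deposited TPM. Exact tests covered all 924 splits, and correlations 100000 resamples (scipy 1.17.1). Alternatives used DESeq2 1.42.0, limma 3.58.1, other scalings, filters, covariates and a length spline with 4 degrees of freedom. Lengths and coordinates came from GENCODE vM21, which matched 47224 gene IDs. The edgeR step was tested on simulated data. The members and all lists were chosen with earlier results of these data known. Every member is named, with values for those that passed and the pair of largest positive fold change; other lists are represented by genes that passed or the pair of smallest p. Totals of 17.8M to 24.1M counts set the counting precision. No promoter sequence is shown for Tomm7, Tomm40l, Timm21 and Hspa9.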

Additional observations from a re-analysis of the deposited data

Results flagged for a closer look

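Among 54 groups of 6 libraries checked, 2 held a library set apart from the rest, where chance alone gives about 1 in 20, or 2.7. Tomm70a had 246.9 CPM in Young tumor 2, against 161.8 to 185.5 CPM in the other Young libraries. Timm50 had 49.43 CPM in Young tumor 5, against 40.78 to 43.89 CPM in the other Young libraries. The gap to the nearest library took 0.722 of the group's range for Tomm70a and 0.641 for Timm50, above Dixon's 95% critical value.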

How the results depend on the processing

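With every library in edgeR 362 genes passed, 127 higher and 235 lower in Old, and 6 members were lower. Members lower numbered 7 with RLE scaling, 6 with upper-quartile and 5 with total-count scaling; the last gave 152 genes higher and 143 lower. Other counts, as genes called (higher, lower) and members lower, were 151 (41, 110) and 3 without a filter; 522 (158, 364) and 9 with at least 1 CPM in 6 libraries; 1439 (573, 866) and 14 in DESeq2; 977 (418, 559) and 11 in limma-voom; 111 (15, 96) and 1 with the length correction; 93 (12, 81) and 1 with length and GC correction; 742 (343, 399) and 6 without Old tumors 1 and 5; 1256 (530, 726) and 12 at an adjusted p under 0.1; and 1 (1, 0) and 0 at an adjusted p under 0.01, with cycling markers as a covariate and with acinar markers as a covariate. Without Young tumors 1 and 2, chosen after seeing the data, all 4 counts were 0. Unrounded counts, also added later, gave 362 and 6. Leaving out 1 library gave 2 to 1106 genes, 2 to 433 higher, 0 to 673 lower and 0 to 10 members.

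On log2(TPM + 1) 339 genes passed, 291 higher and 48 lower, and on log2(TPM + 0.1) 356, 312 higher and 44 lower, with Hspe1 and Tomm7 as the 2 members lower. The median of all genes was 0.13 and 0.15 on these scales and that of the members -0.13 on both, so relative to all genes the members stood at -0.25 and -0.28, against -0.27 in CPM. On these scales 6 members that were not called crossed 0: Hspa9 to 0.0505 and 0.0507, Timm22 to 0.0254 and 0.0261, Timm50 to 0.0208 and 0.0211, Tomm34 to 0.0251 and 0.0258, Tomm40l to 0.0522 and 0.0542, and Tomm70a to 0.0663 and 0.0672. Tomm70a also crossed to 0.0115 in limma-voom, 0.0703 with the cycling covariate, 0.0124 without Young tumor 2 (-0.12 to 0.012 with any 1 library out) and 0.0321 without Young tumors 1 and 2. The cause was not tested.

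Replicate numbers did not pair the libraries: correlations of same-numbered libraries ran from -0.23 to 0.14 over 6 pairs, and 1 of 6 Old libraries correlated best with its own number. With a replicate block 1 gene passed, 1 higher and 0 lower, and 0 members, also together with the length correction. In this block the ratio differences of -0.30 for Grpel1/Grpel2, 0.24 for Hspd1/Hspe1 and 0.26 for Hspa9/Hspd1 had adjusted p = 0.25 each by exact permutation of signs over 6 pairs. The smallest p that test can give is larger than the 0.00216 of the unpaired test, so it had little room for a call. With 1 library left out the uncalled ratio differences ran from -0.082 to 0.0014 for Timm17a/Timm17b (0.0014 without Old tumor 5), -0.21 to 0.020 for Timm8a1/Timm8b (above 0 with Old tumor 1 left out, 0.0094, with Old tumor 3, 0.0042, and with Young tumor 2, 0.020), 0.13 to 0.26 for Timm9/Timm10, -0.0063 (without Old tumor 3) to 0.049 for Tomm20/Tomm22 and -0.18 to -0.047 for Tomm40/Tomm40l. Those called ran from -0.34 to -0.26 for Grpel1/Grpel2, 0.18 to 0.28 for Hspd1/Hspe1 and 0.21 to 0.30 for Hspa9/Hspd1. On log2(TPM + 0.1) r fell to 0.498 for Hspa9 with Grpel1 (permutation, adjusted p = 0.134) and 0.453 for Timm8b with Timm13 (0.136), below the call. Within Old and Young tumors r was 0.525 and 0.883 for Hspd1 with Hspe1, 0.903 and 0.489 for Hspa9 with Grpel1, 0.77 and 0.6 for Timm9 with Timm10, and 0.0713 and 0.122 for Timm8b with Timm13, each with an adjusted p above 0.05 over 4 pairs.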

Other observations

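Tomm6os, a non-coding gene annotated antisense to Tomm6 and sharing 219 exon bases with it, was looked at after its values had been seen. It had 0.69, 0.755 and 1.0 TPM as lowest, median and highest in Old tumors, against 0.21, 0.445 and 0.57 TPM in Young tumors, with no overlap. Its log2 fold change was 0.75 (edgeR adjusted p = 0.104, SE 0.24), opposite in sign to the -0.31 of Tomm6. The strand setting of the counting is not given in the sources used here, so reads of the pair cannot be told apart.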
